A study of Mus musculus with 24 samples.

Results

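Npy6r, Tnfsf11, Serpinc1, 1700016G22Rik and C530043K16Rik were described in whole kidneys of 24 mice, library by library. These 5 genes, of the 54532 in the count table, were picked on these same libraries. The reason was that RC/- kidneys, the cystic genotype, differed from RC/+ kidneys in the unedited line and in lines with an edited Pkd1. The RC/- against RC/+ differences are therefore given as values and are not tested for them. All 5 were among the 22570 genes kept by the limit on low counts (a mean log2 CPM of at least -3, where CPM is a count scaled to the same total in every library). The reason for picking them held only in part. Npy6r passed the threshold of the test across all genes in every line, 1700016G22Rik in the unedited and D53 lines, and Serpinc1 in the D53 line, while Tnfsf11 and C530043K16Rik passed it in neither edited line.

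Every mouse was C57BL/6 (C57BL/6 J by the methods of the study), was killed at 18 days and had 1 copy of Pkd1 with a missense change (the RC copy). Pkd1 encodes polycystin-1, whose mutation is the most common cause of dominant polycystic kidney disease. The study deleted the binding motif of the microRNA miR-17 from the 3′ UTR of that RC allele, in line D18 (founder 3) and in line D53 (founder 2), each bred from 1 founder, and asked what this did to the disease. The groups were RC/+ (n = 3), RC/+ D18 (n = 3), RC/+ D53 (n = 3), RC/- (n = 5), RC/- D18 (n = 5) and RC/- D53 (n = 5). In the RC/- mice the other Pkd1 allele was floxed and had been inactivated by a Cre transgene under the Cdh16 (Ksp) promoter, which is active in renal tubules. The RC/+ mice carried the floxed allele without recombination. The study reports that in RC/- mice the edit relieved cystic disease almost entirely, with relative kidney weight and blood urea nitrogen nearly normal. Here cystic names the RC/- genotype of any line and noncystic the RC/+ genotype, whatever the state of the kidney. Cre was present in all 15 RC/- mice and in none of the 9 RC/+ mice, so that Cre and the cystic genotype cannot be told apart. Libraries held 20379982 to 30837488 counts and are named here by the mouse numbers of the labels, 4 to 27. Pkd1 itself averaged 50.7 to 61.7 CPM in the 6 groups. These counts span the whole gene and show neither the missense change nor the motif deletion.

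The 5 genes have little in common by function. Npy6r encodes a G protein-coupled receptor of the neuropeptide Y family, which binds neuropeptide Y, peptide YY and pancreatic polypeptide and is functional in mouse although its human counterpart is a pseudogene. Tnfsf11 encodes RANK ligand, the cytokine that drives osteoclast formation through its receptor RANK (Tnfrsf11a) and that osteoprotegerin (Tnfrsf11b) neutralises as a soluble decoy. Serpinc1 encodes antithrombin, a serpin made mainly by the liver that inactivates thrombin and other clotting proteases. 1700016G22Rik is annotated as a long noncoding RNA and C530043K16Rik as a transcript whose coding status is not settled, and the function of both is unknown.

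Positions are given for GRCm38 with GENCODE M21. Tnfsf11 occupies chromosome 14, 78277445 to 78308043, on the minus strand, with 2236 exon bases. Serpinc1 occupies chromosome 1, 160978585 to 161005863, on the plus strand, and 34.4% of its 8546 exon bases are also exon of Zbtb37 on the opposite strand. Which strand setting the counts used is not stated, so reads from that stretch cannot be assigned to either gene. 1700016G22Rik, a lincRNA with 740 exon bases, lies at chromosome 13, 5855508 to 5858092, on the minus strand. C530043K16Rik lies at chromosome 5, 66592462 to 66595570, on the minus strand, as 1 block of 3109 bases with the biotype TEC. It sits within the body of Apbb2 on the same strand, between Apbb2 exons, so intronic reads of Apbb2 could be counted for it.

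Promoter windows of 300 bases, 250 before to 50 after the transcription start, are shown for Tnfsf11, Serpinc1 and 1700016G22Rik (RefSeq, GRCm38.p6). They are the 3 of the 5 genes for which a window could be used. Each is printed in the direction of its gene. Capitals mark matches to 5 motifs searched on both strands, and the motifs did not overlap one another in these windows. The Tnfsf11 window lies at chr14:78307994-78308293 on the minus strand, the Serpinc1 window at chr1:160978333-160978632 on the plus strand and the 1700016G22Rik window at chr13:5858043-5858342 on the minus strand.
Tnfsf11: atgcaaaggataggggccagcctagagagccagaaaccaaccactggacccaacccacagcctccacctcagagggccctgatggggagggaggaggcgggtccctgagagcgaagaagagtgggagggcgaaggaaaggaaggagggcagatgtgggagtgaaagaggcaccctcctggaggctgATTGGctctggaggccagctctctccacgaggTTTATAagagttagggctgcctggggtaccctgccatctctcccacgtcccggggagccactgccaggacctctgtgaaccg
Serpinc1: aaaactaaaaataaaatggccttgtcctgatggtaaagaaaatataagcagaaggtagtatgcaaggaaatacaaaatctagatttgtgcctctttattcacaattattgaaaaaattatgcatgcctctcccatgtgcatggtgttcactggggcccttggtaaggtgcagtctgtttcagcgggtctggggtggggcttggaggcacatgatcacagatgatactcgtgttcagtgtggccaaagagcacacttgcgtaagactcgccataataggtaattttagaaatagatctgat
1700016G22Rik: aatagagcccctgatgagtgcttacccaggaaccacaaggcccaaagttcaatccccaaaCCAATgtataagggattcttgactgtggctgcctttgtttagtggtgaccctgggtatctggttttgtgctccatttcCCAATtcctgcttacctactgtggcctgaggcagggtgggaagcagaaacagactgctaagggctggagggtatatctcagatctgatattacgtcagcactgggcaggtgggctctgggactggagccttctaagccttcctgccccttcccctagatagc

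These windows shared no motif across all 3 genes. Tnfsf11 held a TATA box (TATAAA) on the strand opposite to the gene, where the printed window reads TTTATA, starting 32 bases before its start, which 13.6% of the 32851 mouse promoter windows also held. A CCAAT box (letters CCAAT) started 64 bases before the start of Tnfsf11, again on the strand opposite to the gene, and at 190 and 112 bases before the start of 1700016G22Rik, on the strand of the gene. That motif was present in 37.4% of all windows. The Serpinc1 window held none of the 5. The other motifs had no match in any of these windows, namely the HNF1 half-site (letters GTTAAT, in 7.1% of all windows), the AP-1 motif (letters TGANTCA, in 7.81%) and the Myc E-box (letters CACGTG, in 7.15%). The windows held 7 CpG sites in Tnfsf11, 4 in Serpinc1 and 1 in 1700016G22Rik, against a median of 7 over all windows.

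**Figure D1:**
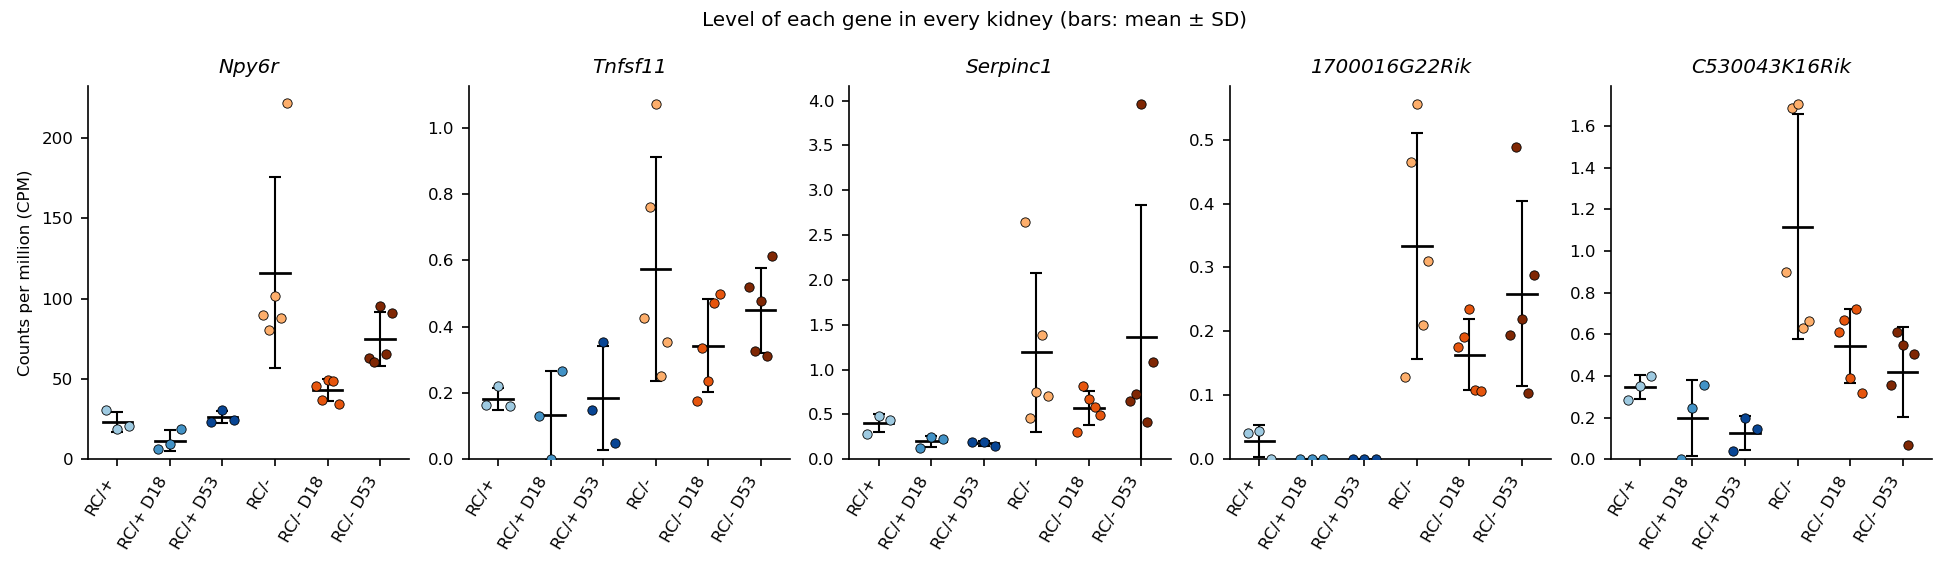
CPM of the 5 genes in each of the 24 kidneys (vertical axes, linear and separate for each gene) by group, with the mean ± SD of each group. Every RC/- library lies above every RC/+ library for Npy6r and 1700016G22Rik, and the groups overlap for the other genes.

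Npy6r (chromosome 18, 44270127 to 44277700, plus strand, 2567 exon bases in 2 blocks, no overlapping gene) was by far the most abundant of the 5. In RC/+ kidneys it measured 30.5, 18.9 and 20.7 CPM, in RC/+ D18 kidneys 6.27, 9.70 and 19.01 CPM, and in RC/+ D53 kidneys 23.5, 30.7 and 24.5 CPM. The RC/- kidneys had 89.6, 80.2, 102, 87.7 and 221 CPM. All RC/- D18 kidneys lay lower, at 45.7, 36.7, 49.2, 48.7 and 34.4 CPM. Those of RC/- D53, at 62.7, 60.2, 95.2, 65.7 and 90.9 CPM, overlapped RC/- and lay above RC/- D18. The lowest RC/- library of any line (34.4 CPM, D18) thus stood above the highest RC/+ library (30.7 CPM, D53). By mean the order was RC/- (116 ± 59.3 CPM, SD, n = 5), RC/- D53 (75.0 ± 16.7, n = 5), RC/- D18 (43.0 ± 6.92, n = 5), RC/+ D53 (26.2 ± 3.90, n = 3), RC/+ (23.3 ± 6.23, n = 3) and RC/+ D18 (11.7 ± 6.59, n = 3).

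The log2 difference of Npy6r between RC/- and RC/+ was 2.23 in the unedited line, 2.01 in D18 and 1.49 in D53 (SE 0.29 each). In fold these were 4.69, 4.02 and 2.82. The D18 line thus had 90.1% and the D53 line 67.0% of the unedited log2 difference. Over the 5753 genes that were higher in unedited RC/- kidneys, the median share left was 17.9% in D18 and 29.0% in D53. Npy6r was picked for differing in the edited lines too, and those genes on the unedited line alone, so the shares are a description. In the D18 line both genotypes had the lowest means of their genotype. The difference within that line was thus large although its RC/- kidneys had less Npy6r than other RC/- kidneys. Mouse 17 was 221 CPM, and without it the unedited difference was 1.97.

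Tnfsf11 was present at a few counts per library. The RC/+ libraries held 4, 5 and 4 counts, RC/+ D18 held 3, 0 and 6, and RC/+ D53 held 4, 9 and 1. The RC/- libraries held 10, 18, 27, 6 and 8 counts, RC/- D18 held 4, 7, 6, 13 and 14, and RC/- D53 held 16, 8, 13, 9 and 17. In unedited mice every RC/- library was above every RC/+ library in CPM, but in both edited lines the genotypes overlapped, and 7 of the 15 RC/- libraries were at or below the highest RC/+ library. Means (SD) were 0.573 ± 0.338 CPM in RC/- (n = 5), 0.449 ± 0.129 in RC/- D53 (n = 5) and 0.343 ± 0.141 in RC/- D18 (n = 5). The noncystic means were 0.185 ± 0.156 CPM for RC/+ D53, 0.182 ± 0.0342 for RC/+ and 0.133 ± 0.134 for RC/+ D18 (SD, n = 3 each). The log2 differences were 1.18, 1.16 and 1.14 in the unedited, D18 and D53 lines (SE 0.46 each), from pooled group totals of 9 to 69 counts. Single libraries moved them, the D18 value being 0.57 without mouse 8 and 1.63 without mouse 9, and the D53 value 0.71 without mouse 12 and 1.58 without mouse 11. The ratios of pooled CPM were 3.22 (95% counting interval 1.77 to 6.35), 2.73 (1.32 to 6.37) and 2.34 (1.295 to 4.52) in the same order, with intervals that overlap. These intervals cover counting error only and leave out the spread between mice. They are no test of the differences, which chose the gene.

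Serpinc1 was also low, and 2 libraries held much of its signal. The RC/+ libraries had 0.286, 0.487 and 0.442 CPM, RC/+ D18 had 0.131, 0.245 and 0.223 CPM, and RC/+ D53 had 0.188, 0.197 and 0.147 CPM. In unedited RC/- kidneys it measured 2.65, 0.465, 0.755, 1.39 and 0.708 CPM. The RC/- D18 values were 0.307, 0.815, 0.667, 0.579 and 0.497 CPM, and the RC/- D53 values were 0.649, 0.733, 3.96, 0.414 and 1.08 CPM. Within each edited line the genotypes did not overlap, whereas in unedited mice mouse 14 (0.465 CPM) lay below an RC/+ library. Across all lines 3 of the 15 RC/- libraries were at or below the highest RC/+ library. The log2 differences were 1.17, 1.19 and 2.05 in the unedited, D18 and D53 lines (SE 0.51 each). The cystic means (SD, n = 5 each) were 1.37 ± 1.47 CPM for RC/- D53, 1.19 ± 0.883 CPM for RC/- and 0.573 ± 0.190 CPM for RC/- D18. The noncystic means (SD, n = 3 each) were 0.405 ± 0.105 CPM for RC/+, 0.199 ± 0.0606 for RC/+ D18 and 0.177 ± 0.0266 for RC/+ D53.

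The libraries with the most Serpinc1 were those with the most Alb. Of these, mice 25, 27 and 13 also had the highest sums of all liver markers (370, 351 and 278 CPM), and mouse 16 did not. Alb, the gene for serum albumin, was at 73.1 CPM in mouse 13 (RC/-) and 88.3 CPM in mouse 25 (RC/- D53), where Serpinc1 was at 2.65 and 3.96 CPM. Mouse 16 (RC/-) had 29.4 CPM of Alb and 1.39 CPM of Serpinc1, and mouse 27 (RC/- D53) had 20.6 and 1.08 CPM. Mouse 17 (RC/-) had 9.11 CPM of Alb, and the other 19 libraries had 0.612 to 3.11 CPM. The summed level of the 9 liver markers ranged from 160 to 268 CPM in RC/+ kidneys of all lines, 93.1 to 278 CPM in RC/- kidneys, 138 to 221 CPM in those of RC/- D18 and 187 to 370 CPM in those of RC/- D53. Mouse 16, with only mice 13 and 25 above it in Serpinc1, had a sum of 129 CPM. That was below every RC/+ library but above mice 14, 15 and 17 of its own group (117, 93.1 and 94.6 CPM). Mouse 12 (RC/+ D53) had 268 CPM with 0.147 CPM of Serpinc1. Ttr and Serpina1a, which kidney also expresses, made up most of that sum in the RC/+ groups, and no marker of the list was at 0 in every library. With mice 13 and 25 left out, a choice made after their counts were seen, the log2 differences were 0.84, 1.19 and 1.57 in the unedited, D18 and D53 lines. The part of liver RNA in the Serpinc1 values was not tested.

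**Figure D2:**
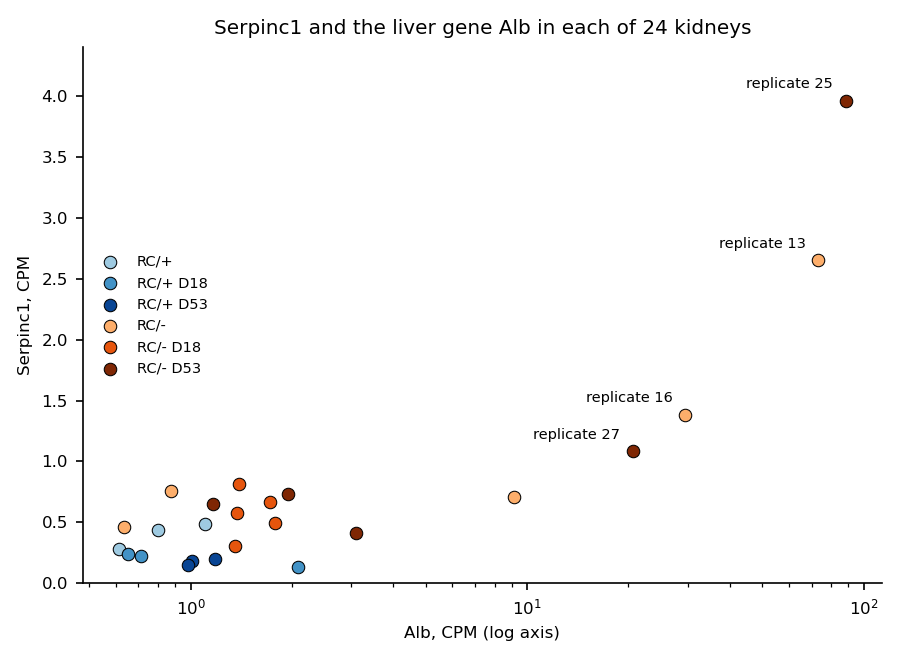
CPM of Serpinc1 (vertical axis) against those of the liver gene Alb (horizontal axis, log scale), with 1 point for each of the 24 kidneys and colours for the 6 groups. The 4 labelled kidneys had at least 20.6 CPM of Alb and 1.08 to 3.96 CPM of Serpinc1.

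1700016G22Rik was nearly absent from noncystic kidneys. The RC/+ libraries held 1, 1 and 0 counts, and all 6 edited RC/+ libraries held 0. The RC/- libraries held 3, 11, 14, 5 and 7 counts. Those of RC/- D18 held 4, 4, 6, 3 and 3, and those of RC/- D53 held 6, 12, 6, 3 and 8. As for Npy6r, all 15 RC/- libraries were above all 9 RC/+ libraries, with 0.104 CPM in the lowest RC/- and 0.0442 CPM in the highest RC/+ library. From pooled counts the RC/- level was 12.1 times that of RC/+ (40 against 2 counts, 95% counting interval 3.15 to 104, exact binomial). It was at least 3.73-fold higher in D18 and at least 6.06-fold higher in D53, taking 3 counts over the whole group as the limit that a count of 0 allows. These intervals and limits cover counting error only. The fitted log2 differences were 1.84, 1.57 and 1.98 (SE 0.36 each) and depend on the prior count.

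C530043K16Rik was low in every group and lowest in noncystic edited kidneys. The RC/+ libraries held 7, 8 and 10 counts, RC/+ D18 held 0, 6 and 8, and RC/+ D53 held 1, 5 and 3. The RC/- libraries held 21, 40, 43, 15 and 15 counts, RC/- D18 held 14, 14, 10, 20 and 9, and RC/- D53 held 11, 15, 15, 2 and 14. The genotypes were separate in CPM in unedited mice only, and 4 of the 15 RC/- libraries were at or below the highest RC/+ library. Mouse 26 (RC/- D53), with 2 counts, was the lowest RC/- library. The cystic means (SD, n = 5 each) were 1.12 ± 0.540 CPM for RC/-, 0.544 ± 0.178 for RC/- D18 and 0.418 ± 0.217 for RC/- D53. The noncystic means (SD, n = 3 each) were 0.347 ± 0.0581 CPM for RC/+, 0.201 ± 0.183 for RC/+ D18 and 0.127 ± 0.0817 for RC/+ D53. The log2 differences were 1.38, 1.42 and 1.17 in the unedited, D18 and D53 lines (SE 0.51 each).

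Per kilobase of exon the order of the genes by level in unedited RC/- kidneys was Npy6r (45.2 CPM per kb), 1700016G22Rik (0.451), C530043K16Rik (0.359), Tnfsf11 (0.256) and Serpinc1 (0.140). Npy6r was therefore the only gene of the group whose level per length exceeded 1 CPM per kb. In bulk kidney, fewer cells of a type and less RNA per cell cannot be told apart for any of these values.

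These values chose the genes, so the counts of calls that follow are descriptive. In RC/- against RC/+, 4 of the 5 had an adjusted p below 0.05 (all but Serpinc1), beside 37.6% of all tested genes. Tnfsf11 and C530043K16Rik lost that call with no limit on low counts and without any one of mice 4, 5, 6, 14 and 15. Within D18 only Npy6r did, beside 0.266% of genes, and within D53 Npy6r, Serpinc1 and 1700016G22Rik did, beside 2.6%. In D53 Serpinc1 no longer passed without mouse 25 (log2 1.57), without any one of mice 10, 11 and 12, or with no limit on low counts, and 1700016G22Rik did not pass by the DESeq2 Wald test. With mice 20 to 27, those high in skeletal muscle markers, as a covariate, none of the 5 passed within D53, Npy6r included. Without that covariate, only Npy6r belonged to the 45 genes that were higher in all 3 lines, 0.199% of those tested. No gene was lower in all 3. RC/- libraries did not overlap RC/+ libraries for 4 of the 5 in unedited mice, for 3 in D18 and for 3 in D53, where the shares of all genes were 26%, 3.85% and 8.12%. All 15 RC/- libraries lay above all 9 RC/+ libraries for 0.496% of genes. In an order of all tested genes by the smallest of their 3 log2 differences, 1700016G22Rik was at place 7 and Npy6r at place 9. C530043K16Rik, Serpinc1 and Tnfsf11 followed at places 29, 30 and 34, where the smallest difference was 1.17, 1.17 and 1.14. The next genes were Egfem1 (1.13), Ryr1 (1.12) and Gm42841 (1.09), which were not picked. Genes placed higher were left out of the 5 too, with Gm14165 (4.14), Gm8730 (3.99) and Mybpc2 (3.16) at places 1 to 3. Among genes past the threshold in all 3 lines, Npy6r was at place 6 of this order. It was followed by Gm9625 (1.86, 1.48 and 1.68 in the unedited, D18 and D53 lines), Fgf18 (3.01, 1.60 and 1.42) and Pmaip1 (2.78, 1.39 and 1.78).

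**Figure D3:**
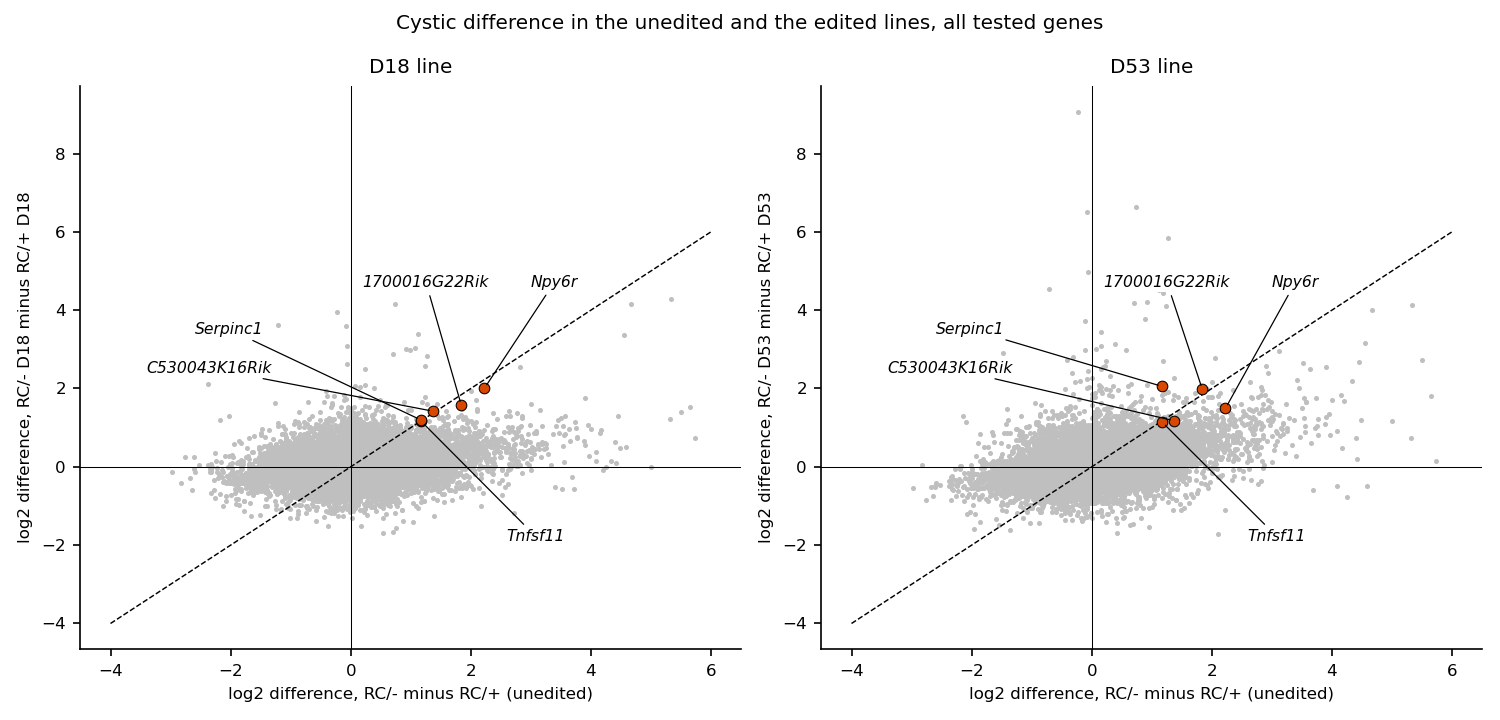
Log2 difference between RC/- and RC/+ in the unedited line (horizontal axis) against that in the D18 line (left) and D53 line (right) for the 22570 tested genes in grey, with the 5 genes in orange. The dashed line marks equal differences, and in D53 Serpinc1 lies above it (2.05 against 1.17) and Npy6r below it (1.49 against 2.23).

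The edited RC/- kidneys were then compared with unedited RC/- kidneys. This contrast did not choose the genes, but the RC/- libraries on which it rests entered their choice. The test was limma-trend, with p-values adjusted over all 22570 genes by Benjamini-Hochberg. Npy6r was lower in RC/- D18 than in RC/- by 2.52-fold (log2 -1.33, 95% interval -1.85 to -0.81, limma-trend adjusted p = 0.000141). Its levels were 34.4 to 49.2 CPM in RC/- D18 and 80.2 to 221 CPM in RC/-. Npy6r was the only one of the 5 past the threshold there, where 41.2% of all genes passed. 1700016G22Rik differed by -0.68 (interval -1.33 to -0.03, adjusted p = 0.0864) and passed only when mouse 13 was left out, alone (-0.90, adjusted p = 0.0239) or with mouse 25. Its adjusted p ranged from 0.0239 to 0.380 over the alternatives. C530043K16Rik (-0.87, interval -1.79 to 0.04), Serpinc1 (-0.77, interval -1.68 to 0.13) and Tnfsf11 (-0.55, interval -1.36 to 0.27) did not pass, with limma-trend adjusted p of 0.121, 0.169 and 0.290. All 5 had a lower mean in RC/- D18, with a median log2 difference of -0.77 beside -0.10 over all genes. The genes were picked partly on high values in these RC/- libraries, which by itself favours lower values in another group. The median is therefore a description, and the p-values of single genes, here and in RC/- D53 against RC/-, carry the same limit.

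In RC/- D53 against RC/-, C530043K16Rik alone passed (log2 -1.32, interval -2.24 to -0.41, limma-trend adjusted p = 0.0257), while 30.2% of all genes passed. The levels of that gene were 0.0690 to 0.611 CPM in RC/- D53 and 0.630 to 1.71 CPM in RC/-. The call was lost without mouse 26 (-0.93, adjusted p = 0.102), without mouse 14 (-1.15, adjusted p = 0.0673) or without mouse 15 (-1.15, adjusted p = 0.0724), and with mice 20 to 27 as a covariate (-0.89). Over all alternatives the adjusted p ranged from 0.0101 to 0.562. Npy6r differed by -0.54 (interval -1.06 to -0.02, adjusted p = 0.109), and without mouse 17 that value was -0.28. The differences of Tnfsf11 (-0.19, interval -1.01 to 0.63), 1700016G22Rik (-0.27, interval -0.92 to 0.37) and Serpinc1 (-0.01, interval -0.92 to 0.90) did not pass. The median over the 5 was -0.27, beside -0.08 over all genes, a description for the same reason.

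Between the edited RC/- groups, RC/- D53 against RC/- D18, none of the 5 passed by limma-trend, edgeR or DESeq2. Of the 5, 1 had an unadjusted p under the threshold, and 0.266% of all genes passed. Npy6r was 0.79 higher in D53 (interval 0.27 to 1.31, limma-trend adjusted p = 0.211), at 60.2 to 95.2 CPM against 34.4 to 49.2 CPM in D18. It passed when only these groups entered the model (adjusted p = 0.0412, with a range over the alternatives of 0.0412 to 0.458). The other differences were 0.76 for Serpinc1 (interval -0.15 to 1.67), 0.41 for 1700016G22Rik (interval -0.24 to 1.06), 0.36 for Tnfsf11 (interval -0.46 to 1.17) and -0.45 for C530043K16Rik (interval -1.37 to 0.47).

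The edit was also compared within noncystic kidneys. In RC/+ D18 against RC/+, 0.00443% of all genes (1 gene) passed, and none of the 5 did by limma-trend, edgeR or DESeq2, with 1 at an unadjusted p under the threshold. The one under it before adjustment was Npy6r (log2 -1.11, interval -1.79 to -0.44, adjusted p = 0.983 by limma-trend), whose 19.01 CPM in mouse 9 (RC/+ D18) reached into the RC/+ range. In RC/+ D53 against RC/+, 0% of genes passed (0 by limma-trend, edgeR and DESeq2, 525 at an unadjusted p under the threshold). None of the 5 was under the threshold there even before adjustment. Serpinc1 was lower in both edited noncystic groups (log2 -0.79 in D18, interval -1.97 to 0.38, and -0.89 in D53, interval -2.06 to 0.28). It held 3 to 6 counts in RC/+ D18 libraries, 3 to 5 in RC/+ D53 and 7 to 11 in RC/+. C530043K16Rik was also lower in RC/+ D53 (-1.12, interval -2.30 to 0.06, adjusted p = 1), with 1 to 5 counts against 7 to 10 in RC/+. The RC/- against RC/+ differences within an edited line are measured from these RC/+ groups, so such lower values add to them. The genes were picked partly on those differences, which by itself favours low values in edited RC/+ libraries.

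**Figure D4:**
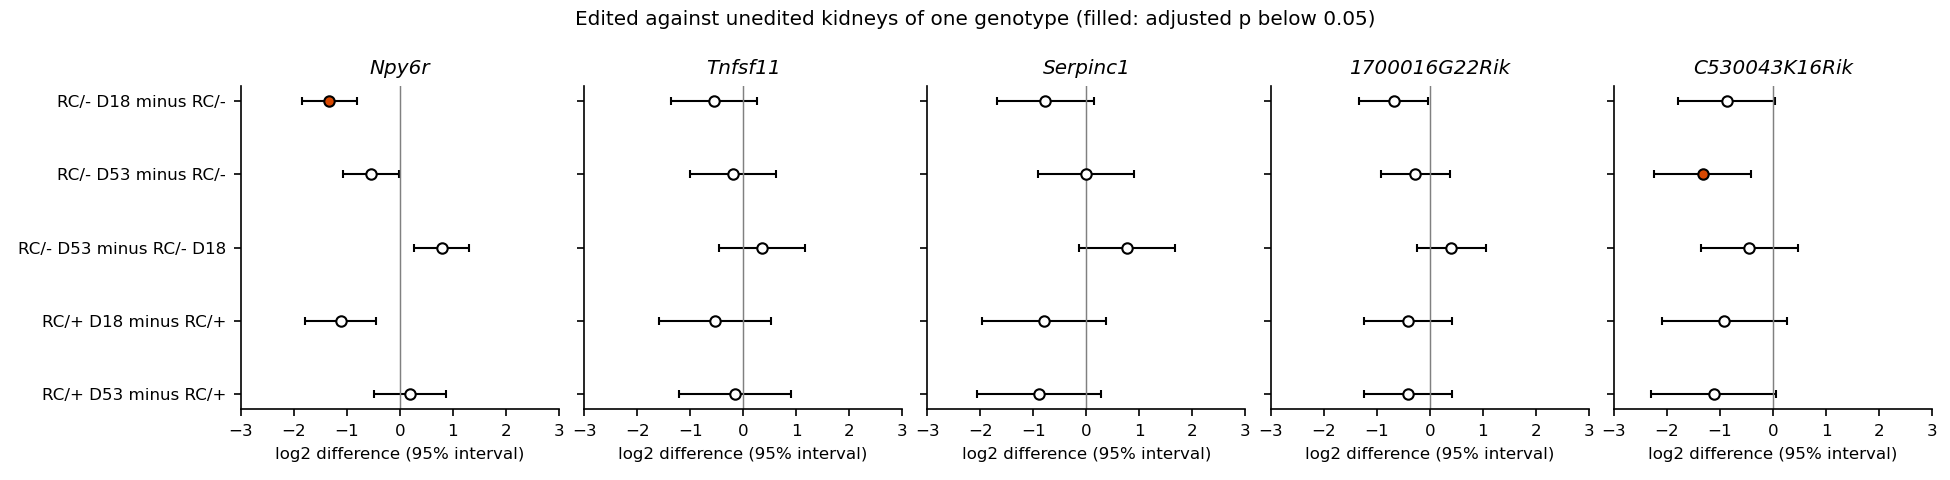
Log2 differences of the 5 genes (points) with 95% intervals (bars). They compare edited with unedited kidneys of the same genotype, and the edited RC/- groups with each other. Filled points mark an adjusted p below 0.05, which only Npy6r in RC/- D18 (-1.33) and C530043K16Rik in RC/- D53 (-1.32) reached.

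The genes around the 5 were examined in the same comparisons. Of 230 annotated genes within 1 Mb of any of them, 88 were tested. In unedited mice 28 of the 88 passed (17 higher and 11 lower in RC/-), beside 37.6% of all genes. In D18 none passed by limma-trend or edgeR and 1 did by DESeq2, with 9 at an unadjusted p under the threshold, and in D53 5 were higher, beside 2.6% of all genes. The medians over the 88 were 0.13, 0.09 and 0.06 in the unedited, D18 and D53 lines, against 0.14, 0.04 and 0.04 over all tested genes.

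Klf6, a zinc finger transcription factor induced by tissue injury, lies 3.4 kb from 1700016G22Rik on the opposite strand. It rose in unedited RC/- kidneys by log2 1.35 (adjusted p = 2.61e-08, limma-trend), from 61.7 ± 4.09 to 161 ± 39.8 CPM. Its difference was 0.35 in D18 (adjusted p = 0.405) and 0.52 in D53 (adjusted p = 0.0328, lost with TMM factors, DESeq2 size factors or no limit on low counts). 1700016G22Rik had 1.57 and 1.98 in those lines. Apbb2, which contains C530043K16Rik, did not pass in any line, at -0.13, 0.06 and 0.22. Zbtb37, which shares exon with Serpinc1, did not pass either, at 0.16, 0.02 and 0.10, and Rc3h1 on the other side of Serpinc1 rose by 0.38 in unedited mice (adjusted p = 0.000166) and did not pass in D18 (0.17, adjusted p = 0.475) or D53 (0.26, adjusted p = 0.0518).

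Near Npy6r, Spink12 rose by 2.58 in unedited RC/- kidneys (adjusted p = 2.81e-05, limma-trend) and was at 1.296 and 0.52 in D18 and D53, where it did not pass. Myot, a skeletal muscle gene 56.4 kb from Npy6r, was 4.11 higher in RC/- D53 (adjusted p = 0.000474). It moved with the skeletal muscle markers, whose summed level was 168 to 220 CPM in mice 20 to 27 and 9.3 to 24.4 CPM in the other mice. All 5 RC/- D53 kidneys and 3 of the 5 RC/- D18 kidneys are among mice 20 to 27. Near Tnfsf11, Fam216b and Akap11 passed in no line. Near C530043K16Rik, Uchl1 rose by 1.88 in unedited mice (adjusted p = 3.27e-07) and by 0.81 in D53 (adjusted p = 0.0472, lost under TMM or DESeq2 size factors), with 0.12 in D18. Bend4 rose by 1.89, and by 1.24 in D53 (adjusted p = 0.00019), and Gm43343 by 1.17 in unedited mice (adjusted p = 0.0275). Gm37362 near Serpinc1 did not pass, and Pfkp near 1700016G22Rik rose by 0.82 in unedited mice and 0.40 in D53 (adjusted p = 0.0399, also lost under those scalings).

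**Figure D5:**
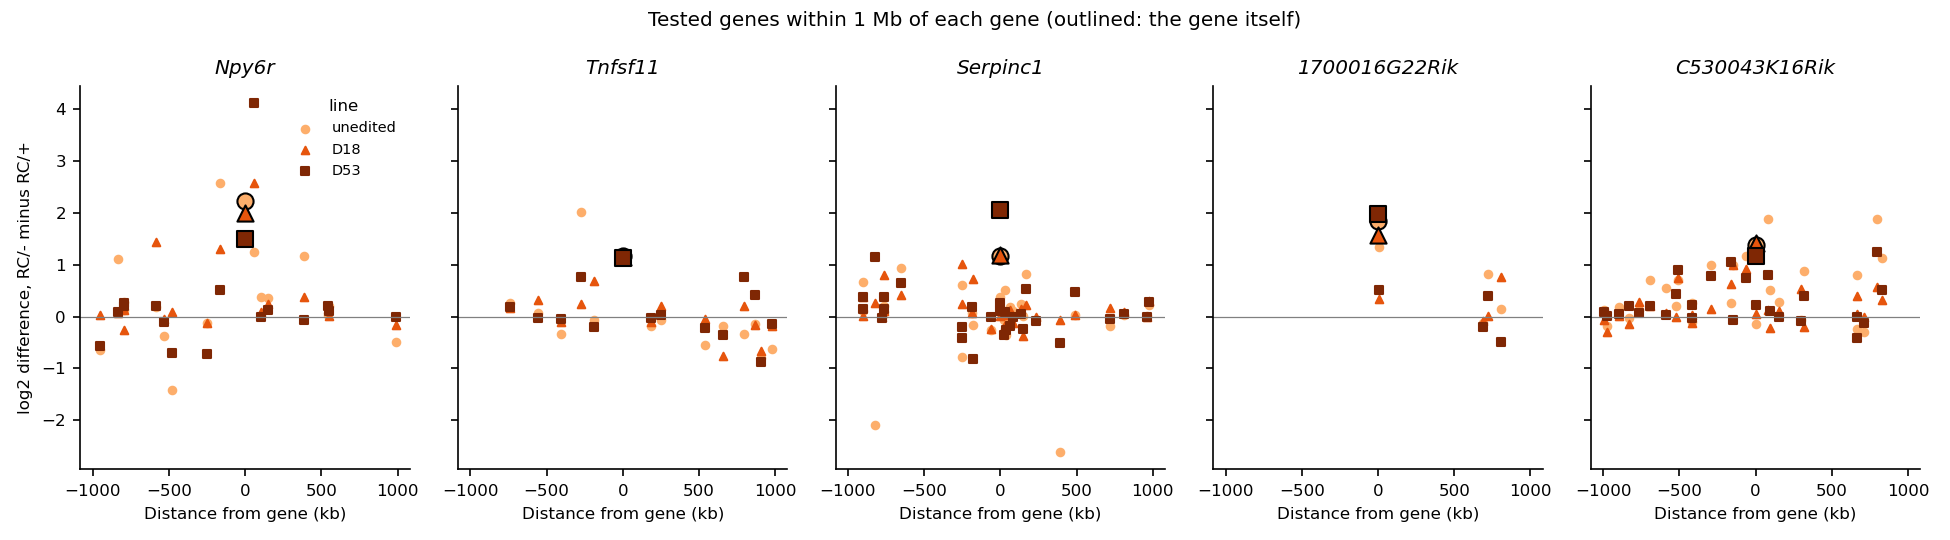
Log2 difference between RC/- and RC/+ (vertical axis) of tested genes within 1 Mb of each of the 5, by distance in kb (horizontal axis), with 1 marker shape and colour for each line. Outlined markers at 0 are the genes themselves, at 1.14 to 2.23, and the D53 marker at 4.11 near Npy6r is Myot.

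Genes of RANK ligand signalling were examined beside Tnfsf11. Of 18 genes in that list, 9 rose and Lgr4 fell in unedited RC/- kidneys (median log2 0.39, against 0.14 over all genes), beside 37.6% of all genes called. In D18 none passed (0 by edgeR and DESeq2, 3 at an unadjusted p under the threshold, median 0.11 against 0.04). In D53 4 rose, namely Csf1 (0.82, adjusted p = 0.000354, limma-trend), Nfkb2 (0.44, adjusted p = 0.0133), Rela (0.27, adjusted p = 0.0354) and Fos (0.74, adjusted p = 0.0371), with a median of 0.13 against 0.04 and 2.6% of all genes called. Csf1 and Nfkb2 also passed with TMM factors and with DESeq2 size factors, while Rela and Fos did not. Tnfrsf11a, the receptor, passed in no line (0.16, 0.11 and 0.27). Tnfrsf11b, the decoy, rose by 2.06 in unedited mice and was at 0.30 and 0.12 in D18 and D53, without passing.

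Among the clotting and fibrinolysis genes related to Serpinc1, 27 of 29 were tested, of which 9 rose and 5 fell in unedited RC/- kidneys (median 0.49, against 0.14), beside 37.6% of all genes called. Proc, the gene for protein C, fell by 1.12 on the log2 scale, and Serpind1, the gene for heparin cofactor, rose by 1.13 (adjusted p = 0.0356, limma-trend). Neither passed in an edited line. In D18 no gene of the list passed (0 by edgeR and DESeq2, 2 at an unadjusted p under the threshold, median -0.01 against 0.04). In D53 only F3, the gene for tissue factor, rose (0.79, adjusted p = 0.0011), with a median of 0.003 against 0.04 and 2.6% of all genes called. F2, the gene for prothrombin, held 75 and 82 counts in mice 13 and 25 and 0 to 39 in the others, and its differences of 1.70, 0.24 and 1.65 did not pass.

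In the neuropeptide Y system, 7 of 8 listed genes were tested. Npy2r rose by 2.85 and Dpp4, whose peptidase cuts neuropeptide Y, fell by 0.99 on the log2 scale in unedited RC/- kidneys, with a median of -0.03 against 0.14 over all genes and 37.6% of all genes called. None passed within D18 or D53 by limma-trend, edgeR or DESeq2 (0 and 1 at an unadjusted p under the threshold, medians -0.04 and 0.28 against 0.04 in both). Npy was at 0.25, -0.11 and 0.28, and Npy1r at -0.88, 0.76 and 0.61, without passing in any line.

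The genes whose log2 CPM tracked each of the 5 most closely over the 24 libraries are given as a description, since all libraries share the same 6 groups and the counts of most of the 5 are low. For Npy6r they were Fzd3 (r = 0.94), Wnt6 (0.94) and Samd5 (0.93). For Tnfsf11 they were Artn (0.80), Csnk1g1 (0.79) and Six4 (0.79), and for 1700016G22Rik they were Gm6278 (0.91), Taf3 (0.91) and Epb41l4b (0.90). For Serpinc1 they were Cyp2c70 (0.84), Crp (0.83) and Apoa1 (0.82), all genes expressed mainly in liver. For C530043K16Rik they included ENSMUSG00000097340 (0.84) and Cnksr1 (0.84). None of the 5 was among the closest genes of another. Pairs of the 5 had r of 0.54 (Tnfsf11 and Serpinc1) to 0.81 (Npy6r and 1700016G22Rik) over 24 libraries, and -0.01 (Serpinc1 and 1700016G22Rik) to 0.62 (1700016G22Rik and C530043K16Rik) over the 15 RC/- libraries alone.

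Markers of the nephron were present in every library, and their summed levels differed between genotypes without overlap in the unedited line. In D53 this held for proximal tubule and collecting duct markers only. Thick ascending limb and distal tubule markers overlapped there (5147 to 7941 CPM in RC/- D53, 6899 to 7282 CPM in RC/+ D53). Podocyte markers did too (477 to 590 against 581 to 590 CPM). Proximal tubule markers summed to 1580 to 3829 CPM in RC/- against 6948 to 7477 CPM in RC/+, to 6332 to 8529 against 7679 to 9076 CPM in D18, and to 5075 to 6337 against 6770 to 7462 CPM in D53. Collecting duct markers summed to 1478 to 3562 CPM in RC/- against 982 to 1246 CPM in RC/+, to 1093 to 1432 against 1016 to 1656 CPM in D18, and to 1321 to 2453 against 825 to 1015 CPM in D53, where 3 of 8 rose. The part of either in the values of the 5 genes was not tested. Cdh16, whose promoter drives the Cre, averaged 1461 to 1519 CPM in the RC/+ groups and 1684 to 1729 CPM in the RC/- groups, and its log2 difference was 0.23 in the unedited line (adjusted p = 0.0347, limma-trend), with 0.15 and 0.18 in D18 and D53, where it did not pass. The tubule injury markers summed to 3856 to 8122 CPM in unedited RC/- kidneys and to 1354 to 1895 CPM in the other groups. Of these 7 markers, 6 rose in unedited RC/- kidneys, 0 in D18 and 2 in D53. The injury markers overlapped between RC/- D18 (1497 to 1741 CPM) and RC/+ D18 (1354 to 1711 CPM), while RC/- D53 (1605 to 1895 CPM) lay above RC/+ D53 (1511 to 1603 CPM). Their part in the values of the 5 genes was not tested. In mouse 16 (RC/-) adrenal markers summed to 1790 CPM, against 3.2 to 13.7 CPM elsewhere, and its Npy6r (87.7 CPM) lay within the range of the other RC/- mice. Lymphocyte markers summed to 6.2 to 14.7 CPM. Bone markers summed to 0.58 to 0.93 CPM in RC/- against 0.96 to 2.12 CPM in RC/+, so that every unedited RC/- library lay below every RC/+ library, and overlapped between genotypes in both edited lines (0.61 to 2.6 CPM). Of the 5 bone markers tested, Bglap (1.79) and Ibsp (2.08) rose in D53, and Sost fell by 2.24 on the log2 scale in unedited RC/- kidneys. The part of these cells in the Tnfsf11 values was not tested.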

How the data were processed

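RNA was taken from the right kidney of 24 mice at 18 days of age and sequenced as 1 library per mouse. According to the submitters' processing notes and the study's methods, the authors trimmed reads with Trim Galore 0.6.3, aligned them to GRCm38 with STAR 2.5.3a and counted them per Ensembl gene. The deposited table holds raw counts for 54532 genes, with no normalization; the strand column kept is not stated. The number of unused columns of values was 0. Genes without a symbol (343) held at most 0.0261% of a library. Libraries of a group were checked for copies (39 pairs, chi-square per degree of freedom 8.45 to 48.2).

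Groups came from the genotype labels. Separate mice were labelled, so p-values measure the spread between mice. Log2 CPM (edgeR 4.0.16, prior count 2, scaled by total counts) was tested with limma-trend (limma 3.58.1, R 4.3.3) in one model of 6 group means over 24 libraries. Tests were two-sided, covered the 22570 genes whose log2 CPM averaged -3 or more, and called genes at a Benjamini-Hochberg adjusted p below 0.05. Total-count scaling left a median of all genes of 0.14 in RC/- against RC/+, against 0.01 with TMM factors, and the log2 differences given include that shift. The code was tested on simulated data. Coordinates, exons and neighbours came from GENCODE M21, which held 54409 of the identifiers, and promoter windows from RefSeq, where 3 of the 5 genes were matched and used. The edgeR quasi-likelihood test and the DESeq2 1.42.0 Wald test, other scalings, no limit on low counts, only the groups compared, sex, mice 20 to 27 as a covariate and leaving out each library were tried as alternatives.

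The 5 genes, the gene lists, the markers and the alternatives were chosen with earlier results of these data known. Leaving out mice 13 and 25 together was added after their counts were seen. Other genes were named by a rule: the nearest tested gene on each side of each of the 5, neighbours within 1 Mb that passed in an edited line, the 3 genes with the highest r for each (1 of them is not reported here), the 3 genes following the lowest-placed of the 5 that passed in all lines, list genes that passed in an edited line, and Pkd1, Cdh16, Tnfrsf11a, Tnfrsf11b, Npy, Npy1r, F2, Proc and Serpind1. Lgr4, Npy2r, Dpp4, Apbb2, Zbtb37, Alb, Ttr, Serpina1a, Bglap, Ibsp, Sost, Egfem1, Ryr1, Gm42841, Gm14165, Gm8730 and Mybpc2 were named after their values were seen.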

Additional observations from a re-analysis of the deposited data

Results flagged for a closer look

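In the RC/- group of 5, Npy6r in mouse 17 was at 221 CPM and stood apart from the other 4 mice (80.2 to 102 CPM), with a gap to the next mouse of 0.848 of the range of the group. In the RC/- D53 group of 5, Serpinc1 in mouse 25 was at 3.96 CPM, against 0.414 to 1.08 CPM in the other 4, with a gap of 0.811 of the range. That library also had the highest Alb (88.3 CPM). These were 2 of 15 groups of 5 examined, and chance alone marks about 1 in 20.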

How the results depend on the processing

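No paired analysis was possible because the replicate numbers 4 to 27 are unique to each mouse and pair no mice across groups. Of the 5 genes, the number past the threshold in RC/- D18 against RC/- was 1, and 1 to 2 when single libraries were left out (2 without mouse 13, and 2 without mice 13 and 25). In RC/- D53 against RC/- it was 1, 0 with mice 20 to 27 as a covariate, and 0 to 1 with single libraries left out. In RC/- D53 against RC/- D18 it was 0, and 1 with only the groups compared. Neighbours past the threshold in D18 were 0, 1 by DESeq2, and 0 to 1 with single libraries left out. In D53 they were 5, then 2 with TMM factors, DESeq2 size factors, no limit on low counts or mice 20 to 27 as a covariate, 8 by DESeq2 or with only the groups compared, 3 without mice 13 and 25, and 2 to 5 with single libraries left out. The RANK ligand list in D53 gave 4, then 2 with TMM factors, DESeq2 size factors, mice 20 to 27 as a covariate or without mice 13 and 25, and 1 to 4 with single libraries left out. The coagulation list in D53 gave 1, then 2 with only the groups compared, 0 with mice 20 to 27 as a covariate, and 1 to 2 with single libraries left out.

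Small differences turned direction. Serpinc1 in RC/- D53 against RC/- (-0.01) was 0.0683 with TMM factors, 0.0566 with DESeq2 size factors, 0.19 by edgeR and 0.26 by DESeq2, and ranged from -0.49 to 0.32 with single libraries left out. Tnfsf11 in RC/+ D53 against RC/+ (-0.15) was 0.0715 by edgeR and 0.0557 by DESeq2, and ranged from -0.59 to 0.28 with single libraries left out. In RC/+ D18 against RC/+ it ranged from -1.004 to 0.0563 (highest without mouse 8), and in RC/- D53 against RC/- from -0.397 to 0.0520 (highest without mouse 15).

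Over all genes, those past the threshold within D18 numbered 60 (11 to 143 under other settings, 14 without mouse 8 to 90 without mouse 9), within D53 587 (287 to 765, and 313 without mouse 12 to 579) and in RC/- D53 against RC/- D18 60 (29 to 276, and 19 without mouse 25 to 59). RC/- D53 against RC/- gave 6805, and 1796 with mice 20 to 27 as a covariate. With that covariate none of the 5 genes passed within D53, where the log2 differences were 1.41 (Npy6r), 0.62 (Tnfsf11), 1.89 (Serpinc1), 2.22 (1700016G22Rik) and 1.61 (C530043K16Rik); that model must take the shift of mice 20 to 27 from RC/- D18 alone. In RC/- against RC/+, Tnfsf11 and C530043K16Rik did not pass with TMM factors, DESeq2 size factors or no limit on low counts. The same held without any one of mice 4, 5, 6, 14 and 15, while Serpinc1 passed without mouse 14. Tnfsf11 also did not pass without mouse 13 or with only the groups compared. The cause of these changes was not tested. Of the 5, 4 had at most 108 counts in any library, which limits every statement about them.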
